A study of Mus musculus with 18 samples.

Results

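Overexpression of c-Fos in the mouse dentate gyrus was compared with expression of the fluorescent protein EYFP, gene by gene. The comparison was fixed by its groups, cFos_OE against EYFP_OE with 3 libraries each, and all genes with a mean normalized count of 50 or more over these 6 libraries were described. This left 12462 of the 24015 genes listed, after 27 rows whose symbols had turned into dates were left out. Of these, 12455 had an adjusted p. Among the genes just outside and just inside the minimum were Ttc23, at 49.9 in the authors' deposited table, and Znrd1as, at 50.1, and neither was called.

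The study sequenced RNA of dentate gyrus, the hippocampal region in which granule neurons receive cortical input, microdissected from adult C57BL/6 mice 8 weeks old. Its 18 libraries, each made from 1 animal, fall into 6 groups of 3, of which the 4 with hairpin constructs (a control or a c-Fos hairpin, each at stages labelled E0 and E1) were not used here. All 6 libraries used share strain, region and age and differ in the overexpressed protein, EYFP in EYFP_OE and c-Fos in cFos_OE. The labels name no stimulation for either group, and how the constructs were delivered, their promoter and the cells that carried them were not given in the sources used here. The comparison was read from summary statistics per gene and no values per library were used here, so spread is given throughout as the standard error (SE) of the log2 fold change, estimated from 3 against 3 libraries.

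c-Fos is a leucine zipper protein of the AP-1 family. It does not bind DNA as a pair with itself but joins a Jun protein (c-Jun, JunB or JunD), and the dimer recognises a short palindrome, TGANTCA in its common form, in enhancers and promoters. In granule neurons Fos is an immediate early gene: it is nearly silent at rest and is transcribed within minutes of synaptic activity, through calcium and MAP kinase signals that act on the factors CREB and SRF. Raising c-Fos by a construct bypasses this upstream route.

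The promoters of genes called higher carried the AP-1 letters more often than those of other genes, and some are printed here so that the letters can be seen in place. RefSeq promoters (GRCm38.p6, 250 bases before to 50 after a transcription start) were found for 9420 of the 12462 genes. Sprr1a, the gene with the largest fold change, and Srxn1 each held 2 matches to TGANTCA, and their whole promoters are shown 5′ to 3′ on the gene's strand with the matches in capitals. The Sprr1a promoter lies at chr3:92485832-92486131 on the minus strand and the Srxn1 promoter at chr2:152105274-152105573 on the plus strand.
Sprr1a: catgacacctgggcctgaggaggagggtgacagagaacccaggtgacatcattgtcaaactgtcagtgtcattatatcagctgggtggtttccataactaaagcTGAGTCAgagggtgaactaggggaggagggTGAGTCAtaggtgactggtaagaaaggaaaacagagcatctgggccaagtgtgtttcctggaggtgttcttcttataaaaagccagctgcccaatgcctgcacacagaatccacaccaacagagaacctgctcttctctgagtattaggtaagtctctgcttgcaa
Srxn1: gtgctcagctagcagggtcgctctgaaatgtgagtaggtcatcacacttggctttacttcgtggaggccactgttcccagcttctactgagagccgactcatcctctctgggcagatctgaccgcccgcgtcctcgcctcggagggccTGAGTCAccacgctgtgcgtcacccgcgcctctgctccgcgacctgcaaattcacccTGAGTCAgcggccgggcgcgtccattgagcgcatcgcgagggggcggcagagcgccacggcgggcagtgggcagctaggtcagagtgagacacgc
All matches in these promoters read TGAGTCA. Shorter stretches around 1 match are shown for 4 more genes that rose, to show that the bases flanking the 7 letters differed from gene to gene. They are Syt6 at chr3:103576116-103576162 (plus strand), Anxa2 at chr9:69453568-69453614 (plus strand), Col6a1 at chr10:76726108-76726154 (minus strand) and Kcnip3 at chr2:127522190-127522236 (minus strand).
Syt6: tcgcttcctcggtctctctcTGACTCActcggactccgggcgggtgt
Anxa2: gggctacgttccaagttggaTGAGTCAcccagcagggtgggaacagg
Col6a1: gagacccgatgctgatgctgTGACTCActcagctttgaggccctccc
Kcnip3: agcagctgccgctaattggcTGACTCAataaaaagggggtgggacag
The letters were also present before genes that fell, as in Rph3a at chr5:121010167-121010213 (minus strand) and Nwd2 at chr5:63648927-63648973 (plus strand), where the matches read TGAATCA and TGATTCA.
Rph3a: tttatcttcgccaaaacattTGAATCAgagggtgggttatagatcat
Nwd2: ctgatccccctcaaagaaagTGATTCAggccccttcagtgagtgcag

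A total of 3 motifs were searched on both strands of every promoter. TGANTCA, the AP-1 palindrome, was in 18 of 96 promoters (18.8%) of genes called higher by at least 2-fold and in 71 of 913 (7.78%) of genes called higher by less. The share was 4.53% in promoters of genes not called, 3.76% (32 of 851) in promoters of genes called lower and 4.83% over all members. Over all 32851 promoters of the RefSeq table it was 7.81%, so promoters of genes expressed here held the letters less often than promoters at large. TGACGTCA, the cAMP response element that CREB binds, was in 0 of the 96 promoters of genes higher by at least 2-fold and in 1.86% of those higher by less. It was in 3.53% of those lower and in 2.99% over all members. The exact 95% interval for the 0 of 96 runs from 0 to 3.77% and so includes the share over all members. The core of the interferon-stimulated response element, searched as TTTC, any 2 bases and TTTC, was in 3.37% of promoters of genes called higher, 3.17% of those called lower and 2.89% over all members. No match of one motif can itself be a match of another. A match describes the letters in a 300-base window and does not show binding, and distal enhancers were not searched. The shares are descriptions and were not tested.

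**Figure D1:**
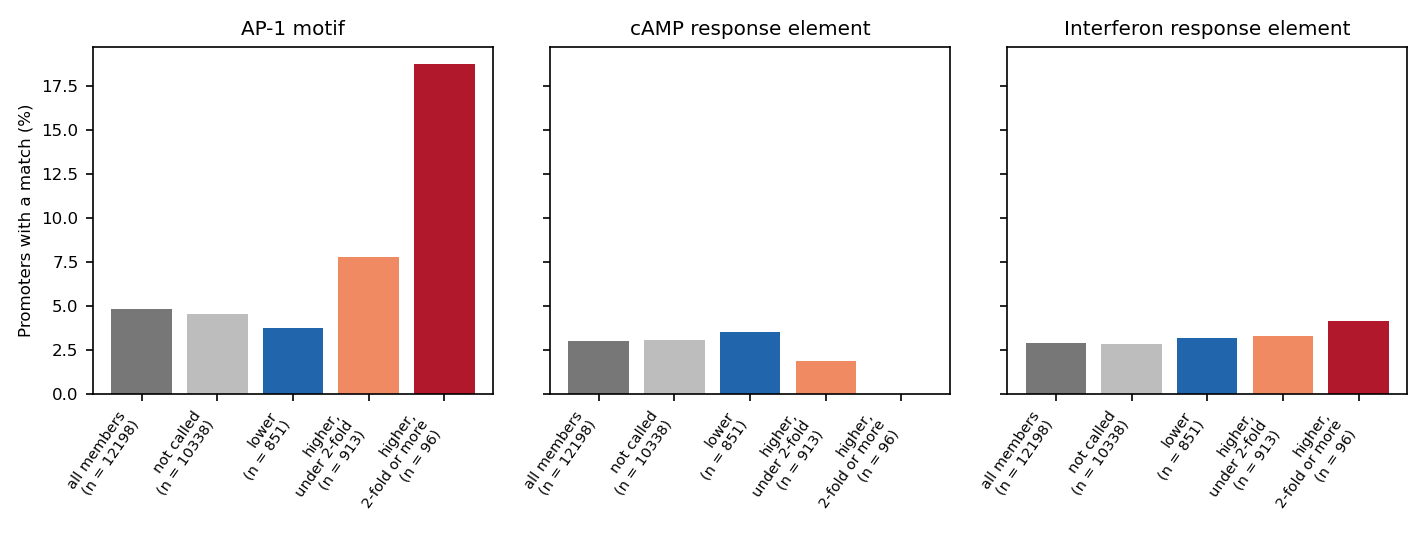
Share of RefSeq promoters (percent, vertical axis from 0) that hold the AP-1 motif TGANTCA, the cAMP response element TGACGTCA or the core of the interferon response element, for all members and by call. The AP-1 bar is 18.8% for genes higher by at least 2-fold against 4.83% over all members. No promoter of those 96 holds the cAMP response element (exact 95% interval 0 to 3.77%, beside 2.99% over all members).

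The direction of every fold change was read from Fos, so its rise is not a check of the labels. In the authors' deposited table Fos had a mean normalized count of 27445 over the 6 libraries and a log2 fold change of 3.34 ± 0.20 (adjusted p = 2.00e-57, DESeq2's Wald test). The deposited fold changes are shrunken towards 0, most of all where the SE is large, and only 31 members had a larger SE than Fos. With that shrinkage removed, the log2 fold change of Fos has 2 solutions, 6.02 and 7.51, and the smaller would correspond to 835 normalized counts in EYFP_OE and 54056 in cFos_OE. Reads of the construct and of the chromosomal gene were not separated.

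Across the transcriptome, 1878 genes (15.1% of those tested) were called at an adjusted p under 0.05, 976 of them higher (7.84%) and 902 lower (7.24%) with c-Fos. The numbers in each direction were similar, but the sizes were not. A change of 2-fold or more was seen in 110 genes called higher (0.883%) and 12 called lower (0.0963%), and with the shrinkage removed 188 and 34. The median log2 fold change of called genes was 0.51 among those higher and -0.38 among those lower, while over all members it was -0.02, with quartiles of -0.12 and 0.10. Lower calls were more frequent among genes with high counts: they were 3.51% of genes with means between 50 and 200 and 22.6% of genes with means of 5000 or more, where the median SE was 0.07 rather than 0.16. The part of this precision in the pattern was not tested. Higher calls varied less with the mean, between 6.83% and 9.37%. Each value is a sum over dissected tissue, in which fewer cells of a type and less RNA per cell cannot be told apart.

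**Figure D2:**
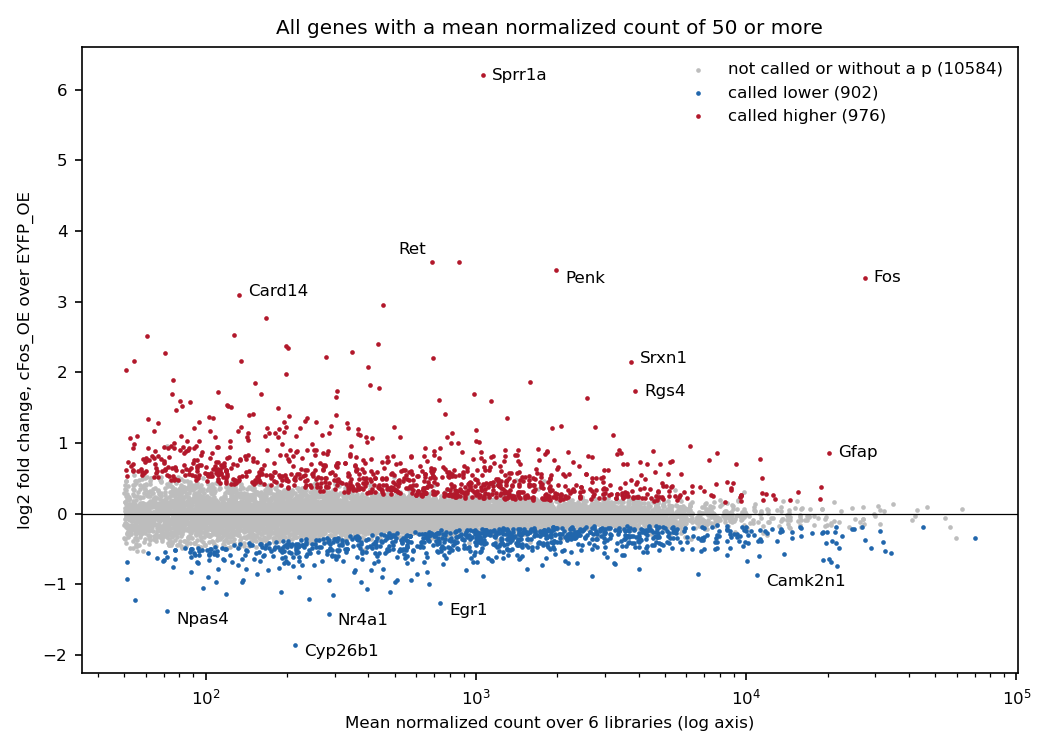
Mean normalized count over the 6 libraries (horizontal, log axis) against the deposited log2 fold change of cFos_OE over EYFP_OE (vertical) for 12462 genes, coloured by call. The 976 genes called higher reach a log2 fold change of 6.20 (Sprr1a), the 902 called lower reach -1.86 (Cyp26b1), and lower calls are 22.6% of genes with means of 5000 or more.

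The leading genes with higher expression included injury-associated, neuropeptide, receptor and matrix genes. Sprr1a, a small proline-rich protein known to rise in injured sensory neurons among other settings, was higher by 6.20 ± 0.17 on the log2 scale in the authors' deposited table (adjusted p = 1.63e-293). Its estimated mean normalized count was 8.89 in EYFP_OE and 2111 in cFos_OE, computed from the authors' deposited table with the shrinkage removed, as are all group levels below. Penk, the precursor of the enkephalins, was at 3.44 ± 0.12 in the authors' deposited table, with levels of 269 and 3693. For Sorcs1, a sorting receptor of the VPS10 family, the authors' deposited table listed 3.56 ± 0.14, with levels of 93.9 and 1639. Ret, the signalling receptor for GDNF-family ligands, stood at 3.56 ± 0.15 in the authors' deposited table, with levels of 69.1 and 1304. Its ligand-binding partner Gfra1 rose as well, by 1.23 ± 0.10 in the authors' deposited table, from 1578 to 3943. These are the receptor and co-receptor of 1 signalling complex. Ecel1, a membrane peptidase that is also raised in injured neurons, was at 2.95 ± 0.13 in the authors' deposited table, and its levels were 82.0 and 823. Srxn1, sulfiredoxin, which reactivates oxidised peroxiredoxins, rose by 2.15 ± 0.10 in the authors' deposited table, from 1264 to 6205. Rgs4, which shortens G-protein signals, rose by 1.73 ± 0.09 in the authors' deposited table, from 1696 to 6053. The leading set was completed by Acan (2.40 ± 0.15), the core protein of perineuronal nets, Igfbp6 (2.28 ± 0.13), which binds insulin-like growth factors, Syt6 (2.08 ± 0.13), a synaptotagmin, and Card14 (3.09 ± 0.18), a scaffold of NF-kB signalling, all from the authors' deposited table. Card14 lies opposite Sgsh in the annotation, and Sgsh stood at 0.13 in the authors' deposited table, with an adjusted p of 0.728.

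The genes that fell with the smallest adjusted p or the largest fold did so by smaller folds, and they included enzymes, channels, synaptic proteins and the immediate early genes Egr1, Nr4a1 and Npas4, described below. Cyp26b1, the enzyme that degrades retinoic acid, had the lowest log2 fold change of all members in the authors' deposited table, -1.86 ± 0.14 (adjusted p = 6.34e-35), and its level was 349.8 in EYFP_OE and 77.6 in cFos_OE. Other strongly supported decreases in the authors' deposited table were Itpr1 (-0.78 ± 0.08), the IP3-gated calcium channel of the endoplasmic reticulum, Camk2n1 (-0.86 ± 0.10), an inhibitor of CaM kinase II, and Cck (-0.88 ± 0.10), the cholecystokinin precursor. The authors' deposited table also had Kalrn (-0.67 ± 0.07), a guanine nucleotide exchange factor of dendritic spines, Rph3a (-0.85 ± 0.10), the vesicle protein rabphilin, and Enc1 (-0.69 ± 0.07), an actin-binding kelch protein. Among the same leading decreases, the authors' deposited table listed the BTB-domain gene Kctd4 (-0.78 ± 0.09), the LIM-only gene Lmo3 (-0.64 ± 0.07) and Nwd2 (-0.99 ± 0.11). Some of these had high counts: Camk2n1 went from 14308 to 7590.1 and Enc1 from 25532 to 15591 normalized counts. Sebox, a homeobox gene near the minimum count, was among the largest folds at -1.22 ± 0.20 in the authors' deposited table.

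**Figure D3:**
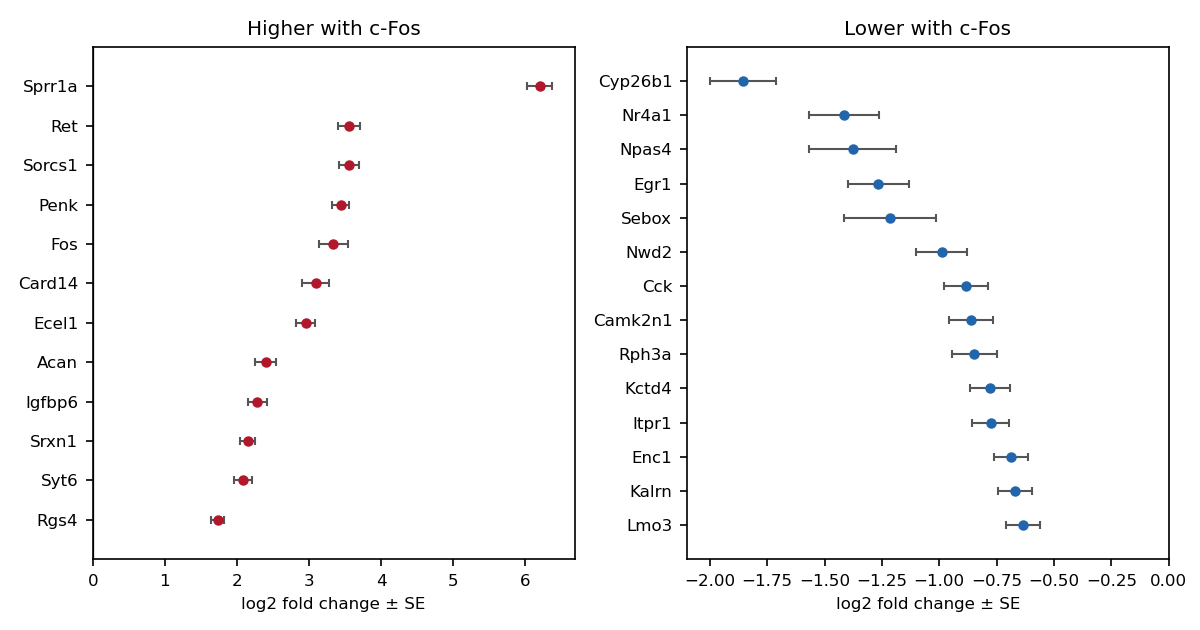
Deposited log2 fold change (horizontal) with its SE for the genes with the smallest adjusted p or the largest fold in each direction, 12 higher (red) and 14 lower (blue). Increases run from 1.73 (Rgs4) to 6.20 (Sprr1a) and decreases from -0.64 (Lmo3) to -1.86 (Cyp26b1), so the scales of the panels differ.

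The other AP-1 subunit genes changed in both directions. Of the Fos family, Fosb fell by 0.79 ± 0.15 in the authors' deposited table (adjusted p = 4.59e-06), from 185 to 96.8 normalized counts. Fosl2, which encodes Fra-2, rose modestly, by 0.35 ± 0.11 in the authors' deposited table (adjusted p = 0.0195). Fosl1 was below the minimum, with a mean of 1.77 in the authors' deposited table. Of the Jun partners, Junb fell by 0.82 ± 0.12 in the authors' deposited table (adjusted p = 1.24e-09), from 859 to 457. Jun and Jund did not pass the test, at -0.08 ± 0.12 and -0.15 ± 0.09 in the authors' deposited table. Of the Jun partners of c-Fos, then, 1 transcript was lower and the others did not pass the test.

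Among related leucine zipper genes, Atf3, a stress-induced partner of AP-1, rose by 1.52 ± 0.19 in the authors' deposited table, from 29.0 to 134 normalized counts. It was the only 1 of 14 measured Jun-family and partner genes called higher, and Junb the only 1 called lower. Nfe2l2, the antioxidant regulator Nrf2, had 0.36 ± 0.14 in the authors' deposited table with an adjusted p of 0.0572, and passed when fold changes were recentred on the median (0.044) or p-values adjusted over the members alone (0.049). The authors' deposited table gave further partners values from -0.29 (Atf7) to 0.13 (Jdp2), with Atf2, Atf4, Mafg, Mafk, Maf and Nfe2l1 between, none past the test.

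Immediate early transcription factors outside AP-1 were listed with some regulators, the kinase Sik1 and the corepressor Nab2 among them. Neurons switch such genes on with activity in the same wave as Fos. Here they were lower or did not pass, with 2 exceptions. Of 22 members, 7 fell and 2 rose, 31.8% and 9.09%, beside 7.24% and 7.84% over all genes tested, and their median was -0.23. Nr4a1, an orphan nuclear receptor, fell by 1.41 ± 0.15 in the authors' deposited table, from 435 to 134 normalized counts. Egr1, a zinc finger factor, fell by 1.27 ± 0.13 in the authors' deposited table, from 1079.6 to 399. Npas4, which neurons induce selectively through calcium signals, fell by 1.38 ± 0.19 in the authors' deposited table, from 116 to 28.7. Egr4 fell by 1.15 ± 0.14 in the authors' deposited table. All 3 Nr4a receptors fell: beside Nr4a1, the authors' deposited table had Nr4a2 at -1.07 ± 0.13 and Nr4a3 at -0.86 ± 0.13. Nab2, a corepressor of the Egr factors, stood at -0.71 ± 0.11 in the authors' deposited table. Egr3 was at -0.06 ± 0.08 in the authors' deposited table and did not pass. The 2 that rose were Sik1, a kinase that restrains CREB coactivators (0.77 ± 0.12), and Ier5 (0.75 ± 0.10), in the authors' deposited table.

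Activity-induced effector genes, which encode secreted, synaptic and signalling proteins, were more often higher than lower. Of 33, 10 rose (30.3%) and 4 fell (12.1%), with a median of 0.16. Beside Acan and Rgs4, the authors' deposited table had Gadd45a, a DNA repair and demethylation factor, at 1.85 ± 0.18, and Nptx2, a pentraxin that clusters AMPA receptors, at 1.60 ± 0.20. The estimated level of Nptx2 was 337 in EYFP_OE and 1929 in cFos_OE. Several of the best-known members did not pass: the authors' deposited table listed Arc at -0.42 ± 0.19 (adjusted p = 0.16), Bdnf at 0.11 ± 0.14 and Homer1 at -0.00 ± 0.10. These 3 were named after their values were seen. The genes of the list therefore did not move as a block.

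**Figure D4:**
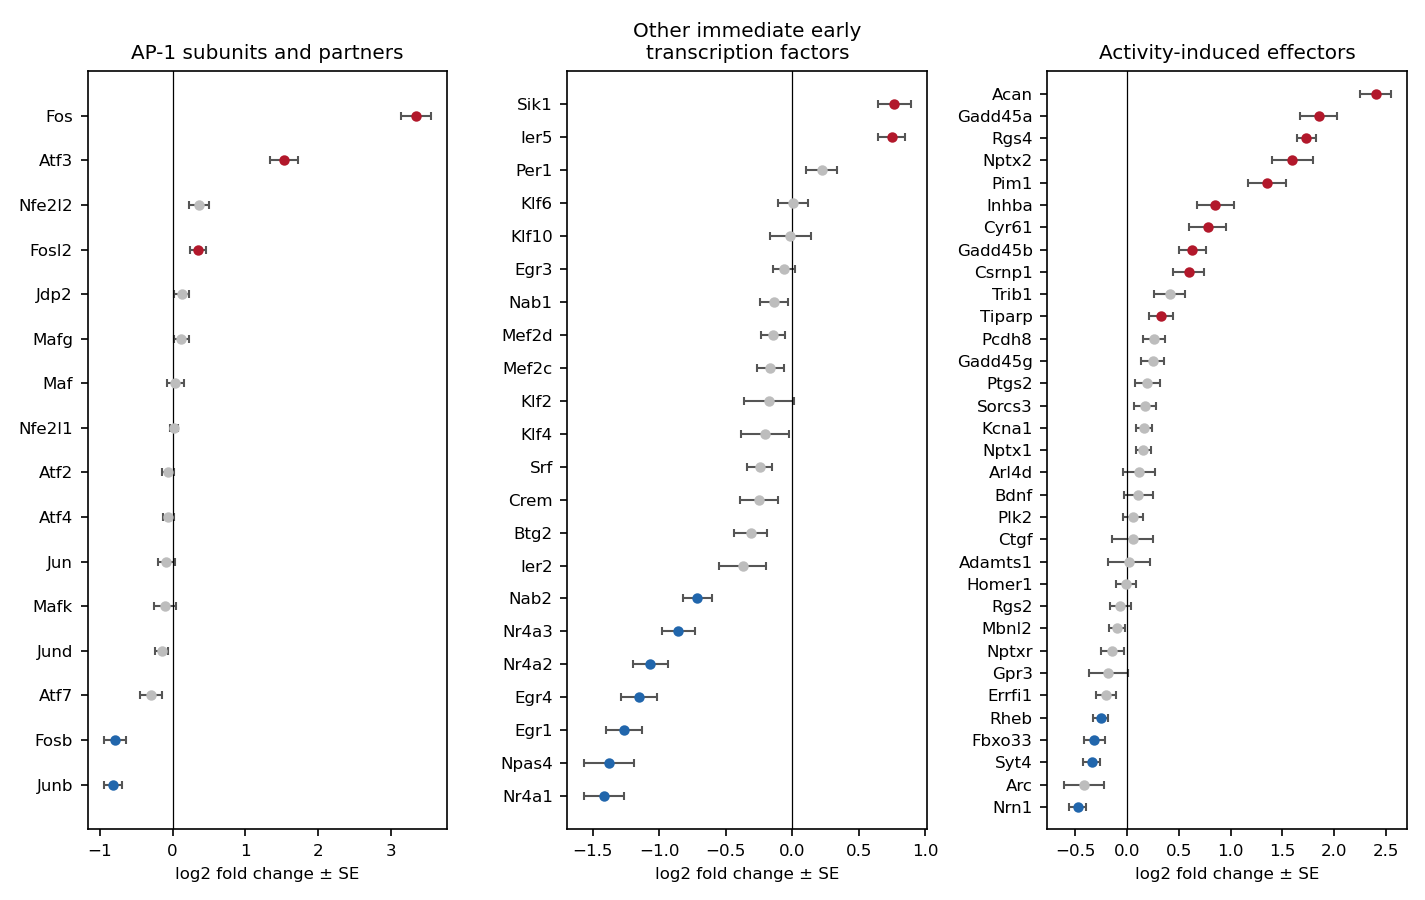
Deposited log2 fold change with its SE (horizontal), red where called higher, blue where lower and grey where not called. Shown are measured AP-1 subunits and partners, with 1 partner that was not called left out. Every measured member of the immediate early transcription factor list, which includes some regulators, and of the activity-induced effector list is shown too. Fos and Atf3 rise while Fosb and Junb fall, 7 of 22 other immediate early genes fall and 10 of 33 effectors rise.

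Transcripts of MAP kinases, calcium-dependent kinases and feedback inhibitors of MAP kinase signalling were lower in part, and kinase activity was not measured. Over all genes tested 7.24% fell and 7.84% rose. MAP kinase phosphatases, Sprouty and Spred proteins are made in answer to MAP kinase activity and switch it off again. Of their 15 genes 6 fell (40.0%) and 1 rose, with a median of -0.30. The authors' deposited table had Dusp6, the cytoplasmic ERK phosphatase, at -0.97 ± 0.13, Spry4 at -0.70 ± 0.15 and Spred1 at -0.52 ± 0.07. Dusp14 was the exception, at 0.72 ± 0.11 in the authors' deposited table. Of 31 MAP kinase and calcium-dependent kinase genes, 12 fell (38.7%) and 1 rose, with a median of -0.14. The median mean count of this list was 2918, and lower calls made up 10.9% of genes with means between 1000 and 5000. The part of the count level was not tested. Here the authors' deposited table listed Prkcd, protein kinase C delta, at -1.11 ± 0.14 and Camkk2, an upstream CaM kinase, at -0.69 ± 0.09, while Camk2d, a CaM kinase II subunit, stood at 0.59 ± 0.19. Of 26 phosphodiesterases, adenylyl cyclases and related genes, 4 fell and 1 rose, and Adcy1, a calmodulin-stimulated cyclase, fell by 0.74 ± 0.11 in the authors' deposited table.

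Neuropeptides and growth factor signals changed in both directions, beside 7.84% higher and 7.24% lower over all genes tested. Of 23 neuropeptide and secretory granule genes 5 rose and 6 fell, with a median of -0.04. Penk stood far above the others, followed in the authors' deposited table by Npy, neuropeptide Y, at 1.18 ± 0.11 and Scg2, secretogranin 2, at 0.74 ± 0.08. Chgb, a granule protein, fell by 0.60 ± 0.11 in the authors' deposited table. Pdyn, the dynorphin precursor of granule neurons and named after its value was seen, fell by 0.46 ± 0.16 in the authors' deposited table, so the opioid precursors Penk and Pdyn changed in opposite directions. Of 34 neurotrophin and growth factor genes 7 rose and 9 fell, with a median of -0.04. Ret, Igfbp6 and Gfra1, described above, were among those that rose. Of 21 receptors for amines, acetylcholine, adenosine and cannabinoids 3 rose and 4 fell. The dopamine D1 receptor gene Drd1a rose by 1.98 ± 0.17 and the adrenergic receptor gene Adra1a by 1.22 ± 0.16, while Adra1d fell by 0.60 ± 0.12, in the authors' deposited table.

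Genes known from other tissues as AP-1 targets of matrix remodelling and injury were higher: 17 of 28 rose (60.7%, beside 7.84% over all genes tested), none fell, and the median was 0.39. Sprr1a led them. Itga5, the fibronectin-binding integrin subunit, rose by 2.37 ± 0.16 in the authors' deposited table, from 44.9 to 353 normalized counts. Anxa2, a membrane-binding annexin, rose by 1.74 ± 0.14 in the authors' deposited table, from 121 to 490.2. S100a6, a small calcium-binding protein, rose by 1.31 ± 0.16 in the authors' deposited table. Several of these genes, among them Cd44 (0.85 ± 0.20 in the authors' deposited table), also serve as reactive astrocyte markers, whose values are given with the glial genes.

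Matrix genes rose in a subset. Of 43 collagen and matrix genes 13 rose (30.2%) and 3 fell, with a median of 0.09. Beside Acan, the authors' deposited table had Col18a1 at 1.35 ± 0.17, Col5a2 at 1.22 ± 0.15 and Col6a1 at 1.12 ± 0.20. Levels of Col6a1 were 1391 and 5022. With the shrinkage removed its log2 fold change is 1.85 or, by another solution, 2.82, and these levels rest on the smaller. Not every part of the perineuronal net followed Acan: Bcan, brevican, fell by 0.42 ± 0.08 and Tnr, tenascin-R, was at 0.06 ± 0.08 without passing, in the authors' deposited table. Bcan was named after its value was seen.

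Glutamate and GABA receptor genes were more often lower than higher, by small folds. Among 35 glutamate receptor genes 14 fell (40.0%) and 1 rose, beside 7.24% and 7.84% over all genes tested, with a median of -0.22. The largest falls in the authors' deposited table were those of Cacng3, an AMPA receptor auxiliary subunit, at -0.69 ± 0.12, the kainate receptor subunit Grik3 at -0.55 ± 0.19 and its auxiliary protein Neto2 at -0.53 ± 0.12. The AMPA receptor subunit gene Gria3 fell by 0.37 ± 0.07 in the authors' deposited table. Named after their values were seen, the other abundant subunits Gria1 (-0.26 ± 0.06), Gria2 (-0.22 ± 0.06) and Grin2b (-0.34 ± 0.11) fell too in the authors' deposited table. Of 21 GABA genes 5 fell (23.8%) and none rose. Median mean counts were 1284 for glutamate and 2757 for GABA genes, and 10.9% of genes with means between 1000 and 5000 were called lower. Gabrd, the delta subunit of extrasynaptic GABA-A receptors in granule neurons, fell by 0.67 ± 0.14 in the authors' deposited table, with Gabra5 at -0.35 ± 0.09 and the chloride exporter Slc12a5 at -0.28 ± 0.07.

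Ion channel genes moved in both directions, beside 7.24% lower and 7.84% higher over all genes tested. Of 52 potassium channel genes 15 fell (28.8%) and 7 rose (13.5%), with a median of -0.13. The authors' deposited table had Kcnip3 at 0.87 ± 0.08, a calcium-binding channel partner also known as the transcriptional repressor DREAM, and the glial inward rectifier Kcnj10 at 0.62 ± 0.10, against Kcnf1 at -0.67 ± 0.19 and Kcnh7 at -0.65 ± 0.18. Of 35 calcium, sodium and HCN channel genes 10 fell (28.6%) and 3 rose. Scn4b, a sodium channel beta subunit, and the ryanodine receptor gene Ryr2 were lower, at -1.10 ± 0.18 and -0.50 ± 0.10, while Cacna2d2, a calcium channel subunit, rose by 0.80 ± 0.11, in the authors' deposited table. Among 26 calcium-binding proteins 13 fell and 2 rose, with a median of -0.24. Median mean counts of the channel lists were 1065 and 2023, and that of the calcium-binding list was 3495. Lower calls made up 10.9% of all genes with means between 1000 and 5000. Neurogranin, Nrgn, stood at -0.66 ± 0.11 and hippocalcin, Hpca, at -0.64 ± 0.17, whereas Necab3 rose by 1.61 ± 0.13, in the authors' deposited table. Calb1, calbindin, which marks mature granule neurons and was named after its value was seen, fell by 0.45 ± 0.11 in the authors' deposited table, from 3201 to 2286 normalized counts.

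Structural synapse genes with calls were more often lower than higher, and lower calls are also more frequent among all genes at such counts. Of 41 presynaptic release genes 9 fell and 3 rose, of 33 postsynaptic scaffold and spine genes 6 fell (18.2%) and 1 rose, and of 57 adhesion molecules 12 fell (21.1%) and 4 rose. The median mean counts of these lists were 3255, 4059.8 and 1355, and over all genes with means between 1000 and 5000 lower calls made up 10.9%. The part of the count level in these shares was not tested. The authors' deposited table had the calcium sensor Doc2b at -0.67 ± 0.11, complexin 2, Cplx2, at -0.53 ± 0.09 and the vesicle protein Sv2c at 0.89 ± 0.13. On the postsynaptic side it was Dlgap3, a scaffold, at -0.45 ± 0.11 and the cofilin kinase Limk1 at 0.42 ± 0.09 in the authors' deposited table. Of 42 axon guidance genes 15 fell (35.7%) and 6 rose (14.3%). Sema3e, a secreted semaphorin, rose by 1.21 ± 0.12, while Sema5b (-0.97 ± 0.14), Ntng1 (-0.80 ± 0.14) and Robo3 (-0.80 ± 0.15) fell, in the authors' deposited table. Of 26 Wnt and Notch genes 8 fell and 3 rose. Wnt7b rose by 1.24 ± 0.10 in the authors' deposited table while Wnt7a (-0.55 ± 0.14) and the Notch target Hes5 (-0.55 ± 0.17) fell. AU022754, which lies opposite Wnt7b, had 0.57 in the authors' deposited table.

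Clock and hormone genes included a further set with lower values, beside 7.24% lower and 7.84% higher over all genes tested. Of 19 circadian clock genes 10 fell (52.6%) and 2 rose, with a median of -0.30. The authors' deposited table gave Hlf, a clock-driven leucine zipper factor, -0.69 ± 0.11 and Per3 -0.56 ± 0.12. Bhlhe41, a repressor of the clock, rose by 1.35 ± 0.10 in the authors' deposited table, from 699.9 to 1912 normalized counts, and Npas2, a partner of BMAL1, by 0.70 ± 0.15. The times of day at which tissue was taken were not given in the sources used here. Of 19 retinoic acid and thyroid hormone genes 4 fell and 1 rose: beside Cyp26b1, the authors' deposited table had the receptor Thra at -0.30 ± 0.08, the deiodinase Dio2 at -0.31 ± 0.09 and the retinol transporter Stra6 at 0.42 ± 0.15. Thra and the clock gene Nr1d1 overlap on opposite strands. Of 19 glucocorticoid targets 6 rose and 3 fell, and the authors' deposited table had Hif3a at 0.92 ± 0.18 and Sgk1 at 0.57 ± 0.11.

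Stress genes rose in part, beside 7.84% higher and 7.24% lower over all genes tested. Of 21 p53 target and cell death genes 6 rose (28.6%) and 1 fell, with a median of 0.21. Cdkn1a, the cell-cycle inhibitor p21, rose by 0.98 ± 0.15, the death-promoting Bcl2l11 by 0.55 ± 0.16 and Apaf1 of the apoptosome by 0.53 ± 0.10, in the authors' deposited table. Of 19 Nrf2 antioxidant genes 6 rose (31.6%) and 2 fell, with a median of 0.00. Hmox1, heme oxygenase, rose by 0.62 ± 0.16 and metallothionein Mt2 by 0.56 ± 0.11, while Gsta4 fell by 0.50 ± 0.10, in the authors' deposited table, so Srxn1 stood well apart from the rest of that list. Of 33 chaperone genes 5 rose and none fell, led by Hsph1 at 0.76 ± 0.08 in the authors' deposited table. Of 21 integrated stress response genes 3 fell and 1 rose, and Cebpb fell by 0.60 ± 0.15 in the authors' deposited table.

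Of the immune genes called, most were higher, beside 7.84% higher and 7.24% lower over all genes tested. Of 16 MHC and antigen presentation genes 12 rose, none fell, and the median was 0.66. Nlrc5, the activator of MHC class I genes, rose by 1.17 ± 0.20 in the authors' deposited table, from 24.9 to 104 normalized counts. With the shrinkage removed its log2 fold change is 2.06 or, by another solution, 2.71, and these levels rest on the smaller. The class I gene H2-T23 was at 0.72 ± 0.16 in the authors' deposited table, and the class II genes H2-Eb1 and H2-Ab1 were at 0.70 ± 0.20 and 0.70 ± 0.20. Many MHC class I genes are near-identical copies of each other, and how their shared reads were counted is not given in the sources used here. Of 24 interferon response genes 22 were tested, of which 8 rose (36.4%) and none fell, with a median of 0.38. The other 2, Gbp2 and Igtp, have a score but no p, which DESeq2 gives where the count of 1 library is an outlier for the gene, and the table does not show which library. The authors' deposited table had the GTPase Gbp3 at 0.82 ± 0.19, Oasl2 at 0.71 ± 0.20, Bst2 (tetherin) at 0.68 ± 0.20 and the myeloid factor Irf8 at 0.63 ± 0.16. The errors of this list were wide, with a median SE of 0.19 against 0.11 over all members. Of 18 tested chemokine, cytokine and complement genes 8 rose (44.4%) and 2 fell. Complement C3 and C4b rose by 1.12 ± 0.20 and 0.88 ± 0.20 and the oncostatin M receptor Osmr by 0.82 ± 0.18, in the authors' deposited table.

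Markers of cell types were read beside these lists and beside the 7.84% higher and 7.24% lower over all genes tested. Microglia and macrophage markers were higher: 11 of 20 rose, none fell, the median was 0.43, and their summed level was 13604 in EYFP_OE and 18417 in cFos_OE. The lysosomal marker Cd68 rose by 0.91 ± 0.15 and the complement gene C1qa by 0.67 ± 0.11, whereas P2ry12, a marker of resting microglia named after its value was seen, was at -0.02 ± 0.10 without passing, in the authors' deposited table. Reactive astrocyte markers had 9 of 12 tested genes higher and none lower, with a median of 0.73 over all 13 members (Cxcl10 has no p). Their summed levels were 15562 and 40291, and Gfap made up most of both sums. The errors of this list were wide, with a median SE of 0.18 against 0.11 over all members. Gfap, the astrocyte filament protein, rose by 0.86 ± 0.20 in the authors' deposited table, from 10628 to 29892 normalized counts. The SE of Gfap was near the largest of the comparison, 0.205, beside a median of 0.07 over genes with means of 5000 or more. With the shrinkage removed its log2 fold change is 1.49 or, by another solution, 2.04, and these levels rest on the smaller. S1pr3 rose by 1.19 ± 0.15 in the authors' deposited table. Of general astrocyte markers 4 of 19 rose (21.1%), 3 fell (15.8%) and the median was -0.03. Beside Gfap, which is on both lists, Sox9 (0.60 ± 0.10) and the water channel gene Aqp4 (0.43 ± 0.11) rose and the glutamine synthetase gene Glul (-0.48 ± 0.07) fell in the authors' deposited table. Among blood cell markers 1 of 12 reached the minimum, the leukocyte gene Ptprc at 0.78 ± 0.18 in the authors' deposited table, and 6 were listed at 0. The part of glial and leukocyte RNA in the rise of immune, matrix and injury genes was not tested.

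Markers of neurons and of the remaining cell types were lower, higher or not called in varying shares. The shares over all genes tested were 7.24% lower and 7.84% higher. Dentate granule neuron markers had 8 of 22 lower and 4 higher, with a median of -0.29 and summed levels of 42562 and 40268. The median mean count of this list was 1618, and lower calls made up 10.9% of all genes with means between 1000 and 5000. Prox1, the defining granule neuron factor, and C1ql2, both named after their values were seen, had means of 2725 and 4721 and did not pass, at 0.12 ± 0.10 and 0.16 ± 0.20 in the authors' deposited table, so transcripts that define the labelled region were counted in these libraries. Smad3 rose by 0.82 ± 0.11 and Trpc6 fell by 0.61 ± 0.12 in the authors' deposited table. Interneuron markers had 6 of 21 lower and 1, Npy, higher. Oligodendrocyte markers had 3 of 18 lower, none higher and a median of -0.31, with summed levels of 43079.8 and 30412 and a wide median SE of 0.20. The authors' deposited table listed Aspa at -0.75 ± 0.20 and Opalin at -0.65 ± 0.19. Endothelial and mural markers had 5 of 19 lower and none higher, with Kdr at -0.43 ± 0.15 in the authors' deposited table. CA1 and CA3 pyramidal markers had 2 of 20 lower, and mossy cell and CA2 markers 3 of 11, among them Rgs14 at -0.89 ± 0.11 in the authors' deposited table. Of 23 neural stem and immature neuron markers 6 rose, led by Sox11 at 0.79 ± 0.11 and Igfbpl1 at 0.79 ± 0.14 in the authors' deposited table, and 5 fell, with Neurod6 at -0.73 ± 0.19. Of 12 oligodendrocyte precursor markers none was called. Choroid plexus markers were mostly below the minimum (11 of 16), and of the 5 above it Prlr rose, by 1.47 ± 0.19 in the authors' deposited table.

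**Figure D5:**
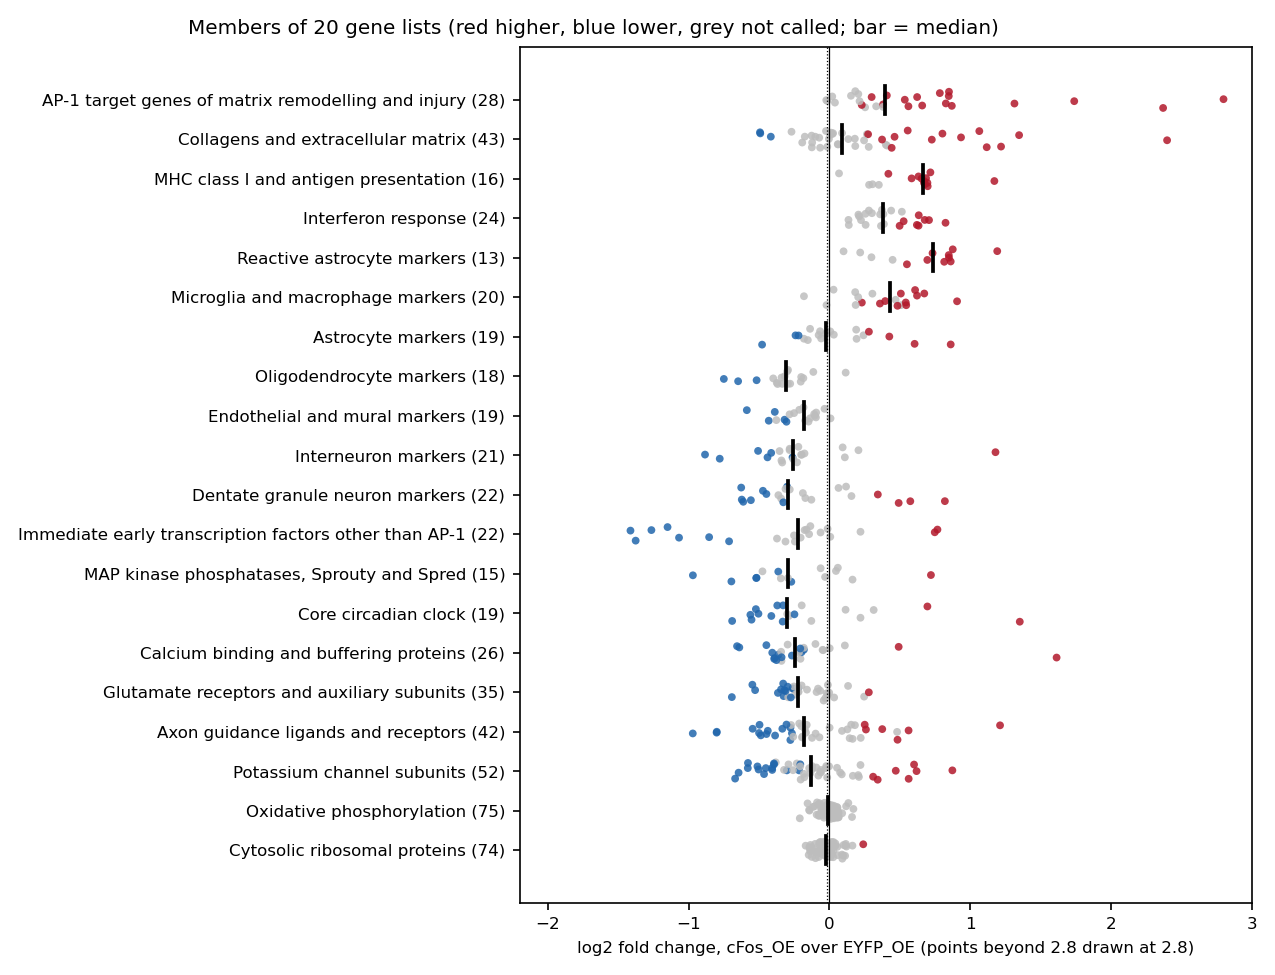
Deposited log2 fold change (horizontal) of every member of 20 gene lists (number of members in brackets), red where called higher, blue where lower and grey where not called, with the list median as a bar and the median of all members dotted. Medians run from 0.73 for reactive astrocyte markers to -0.31 for oligodendrocyte markers, and oxidative phosphorylation and ribosomal protein genes cluster around 0.

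Among housekeeping lists, oxidative phosphorylation and ribosomal protein genes held few calls and the others held varying shares. The shares over all genes tested were 7.84% higher and 7.24% lower. Of 75 oxidative phosphorylation genes none was called and the median was -0.01, and of 74 cytosolic ribosomal protein genes 1 rose, Rplp0 at 0.24 ± 0.07 in the authors' deposited table; their median was -0.02. Proteasome genes had 3 of 37 higher (8.11%), near the share over all genes tested. Of these, Psmb8 (0.69 ± 0.17) and Psmb9 (0.67 ± 0.20) in the authors' deposited table are the interferon-inducible immunoproteasome subunits. Psmb9 overlaps Tap1 on the opposite strand. Lysosomal genes had 6 of 30 higher, beside 7.84% over all genes tested, and none lower, with Ctsd, cathepsin D, at 0.42 ± 0.11 in the authors' deposited table. Glycolysis genes had 4 of 21 higher, led by hexokinase Hk2 at 0.62 ± 0.13, and 2 lower, the lactate dehydrogenase genes Ldhb at -0.32 ± 0.06 and Ldha at -0.24 ± 0.08, in the authors' deposited table. Cholesterol and fatty acid synthesis genes had 5 of 30 lower and none higher, with the regulator Srebf2 at -0.27 ± 0.08 in the authors' deposited table. Cell cycle genes had 4 of 19 higher, including Top2a (0.89 ± 0.19) and Mki67 (0.76 ± 0.17) of dividing cells, and 1 lower, Ccnd2 (-0.51 ± 0.09), in the authors' deposited table. Histone and DNA methylation genes had 2 of 33 higher (6.06%) and 4 lower (12.1%), remodelling and cohesin genes 1 of 29 higher and 1 lower, and splicing and neuronal RNA-binding genes 2 of 32 higher (6.25%) and 5 lower (15.6%). Among them the authors' deposited table had Hdac5 at -0.40 ± 0.08, the remodeller Smarca2 at -0.45 ± 0.09, the demethylase Tet3 at 0.29 ± 0.10, and Rbfox3 (the neuronal marker NeuN) at -0.42 ± 0.09.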

How the data were processed

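RNA of microdissected dentate gyrus was extracted from individual mice and sequenced; the submitters' processing notes name TopHat2, DESeq2 and the mouse build mm9. The authors deposited 1 table for this comparison, with the mean normalized count per gene (a signal: counts divided by size factors, then averaged over 6 libraries), the log2 fold change and its SE in log2 units, a Wald score, and raw and adjusted p-values, per the file headers. The counting tool, annotation, strand setting, sequencing depth and software versions were not given in the sources used here. The table's headers name no libraries (0 columns of values per library), so depth per sample is unknown and no sample could be left out. Replicates come from separate animals.

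The table lists the contrast without stating its direction, which was read from Fos. Genes with a mean of 50 or more were kept, and a gene was called at an adjusted p under 0.05 as the authors adjusted it, over 15851 genes. Recomputing checked the columns: dividing the log2 fold change by its SE returns the score, and the p-values follow from it. The SEs never exceed 0.205, as a zero-centred normal prior with an SD of 0.41 on the log2 scale would give; removing that prior algebraically changes fold sizes and leaves every score, and so every call, as it was. Removing the prior also has another solution with a larger fold, nearest to the first where the SE is close to its maximum. The smaller fold was used for every gene. Group levels were computed from the mean and that unshrunken fold change. Removal of the prior was tested on simulated data shrunken with the same prior. That test checks the algebra alone, and cannot show whether the authors used this prior or which solution holds. Python 3.11.15, pandas 2.3.3 and scipy 1.17.1 were used.

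The genes named are Fos, the 12 with the smallest adjusted p and the 5 with the largest fold in each direction, up to 4 called members of each gene list by fold (where none was called, those with the highest mean), and all measured Fos, Jun and AP-1 partner genes; others are marked as named after their values were seen. A few genes that this rule selects are not reported here. The comparison and the gene lists were chosen with earlier results of these data known, and each list is described by counts and its median, with no test. Promoters are RefSeq's for GRCm38.p6, matched by symbol, and gene overlaps are from GENCODE M21, neither being the authors' build. Alternatives were other thresholds, minimum means and adjustments, recentring on the median fold change, and removal of the prior.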

Additional observations from a re-analysis of the deposited data

How the results depend on the processing

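Of the settings tried, those that moved a total by over 1.5 times were the stricter threshold and the fold minimum. At an adjusted p of 0.01 the lower calls numbered 565 rather than 902. With a fold change of at least 1.5 asked as well, 490 genes were called, 364 higher and 126 lower, so 74.3% of calls were higher rather than 52.0%. With the prior removed and the same minimum, chosen after seeing the data, they were 674, with 471 higher and 203 lower (69.9% higher). The similar totals of higher and lower calls thus hold only without a minimum on the fold. Under the other settings (an adjusted p of 0.1, minimum means of 10 or 200 or none, adjustment over the members alone, recentring) totals ran from 1527 to 2317. Recentring moved the split to 1059 higher and 790 lower. Counted per gene rather than per promoter, also chosen after seeing the data, the AP-1 letters were in 5.88% of members and 11.5% of genes called higher.

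Of the genes named in the text, Homer3 (adjusted p = 0.057) lost its call on recentring and Nfe2l2 gained one; no direction reversed. Removing the prior moved the medians of MHC genes to 0.89, reactive astrocyte markers to 1.04 and oligodendrocyte markers to -0.53. No paired analysis was possible because the values are not given per library; leaving out replicates was not run for the same reason. Genes with low means mostly have wide errors and strong shrinkage, with a median SE of 0.16 for means between 50 and 200. Some abundant genes do too, such as Fos and Gfap, each with an SE of 0.20. Small changes in genes with such errors were not detectable.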

Other observations

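Below the minimum mean of 50, 174 more genes were called, 148 higher and 26 lower. The genes named in this paragraph were chosen after their values were seen. In the authors' deposited table the larger increases were those of Oit3 (1.83 ± 0.20), the interferon-inducible Ifi202b (1.69 ± 0.20) and the phosphatase gene Acp5 (1.57 ± 0.20). Several peptide precursor genes were among them in the authors' deposited table: Avp, vasopressin, at 1.47 ± 0.20, Trh, thyrotropin-releasing hormone, at 1.43 ± 0.20, and Gal, galanin, at 1.14 ± 0.20. The AP-1 relative Batf3 was at 1.14 ± 0.20 in the authors' deposited table. Mafa, a large Maf factor, fell by 1.19 ± 0.20 in the authors' deposited table. All of these have mean counts below 50 over 6 libraries.

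A total of 7 genes at or above the minimum carry no p in the authors' deposited table: Cxcl10, Gbp10, Gbp2, Gbp6, Igtp, Oxt and Xlr3b. All 7 have a score, and DESeq2 leaves the p out of such genes where the count of 1 library is an outlier; which library is not shown in the table. Of these, 5 are interferon-inducible, and their log2 fold changes in the authors' deposited table ran from 0.30 (Gbp6) to 0.45 (Cxcl10). Oxt, the oxytocin precursor, was at 0.96 in the authors' deposited table.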
